A study of Mus musculus with 15 samples.

Results

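Complement transcripts were followed through 8 genes chosen by symbol from the count table: the C1q chains C1qa, C1qb and C1qc, the component C3, the alternative pathway genes Cfb and Cfp, and the anaphylatoxin receptors C3ar1 and C5ar1. The table held 55385 genes, of which 55144 matched a mouse symbol, and all 8 were found in it. They were followed across 15 RNA-seq libraries of bone marrow-derived macrophages (BMDMs) from 6 wk old BALB/c mice. The STAT5 fl/fl group came from 2 mice that carry floxed Stat5 alleles. The STAT5 cKO group came from 3 mice in which the same alleles are deleted by Csf1r-iCre. BMDMs of each mouse were given serum-free DMEM, 20 ng/mL recombinant mouse GM-CSF (rmGM-CSF) in DMEM, or medium conditioned by 4T1 mouse mammary tumor cells (4T1 CM), for 2 h. Each of the 6 groups of genotype and treatment therefore held 1 library per mouse, and the comparisons asked how deletion of STAT5 and each stimulus moved these transcripts.

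The model has limits that bear on every value below. Csf1r-iCre acts in myeloid cells and in some lymphocytes of the mouse, not in macrophages alone. A further STAT5 fl/fl animal failed quality control in the study and gave no data used here. All fold changes concern RNA of a whole culture, and fewer expressing cells and less RNA per cell cannot be told apart in it.

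Complement is a cascade of plasma and tissue proteins that tags particles for uptake and lyses membranes. C1q opens the classical pathway after binding immune complexes, apoptotic cells and other targets, C3 is the component on which all pathways converge, and factor B and properdin build and stabilize the alternative pathway convertase. Most circulating components come from the liver, but macrophages are the principal source of C1q, and myeloid cells also carry the receptors for the peptides C3a and C5a released during activation.

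Library totals ran from 16016736 to 22883108 counts, so that 1 CPM (a count scaled to library size) stood for at least 16 reads. Deletion was visible in the targeted genes: Stat5a and Stat5b had 637 to 1654 counts in STAT5 fl/fl libraries and at most 4 in STAT5 cKO libraries. All 8 macrophage markers checked were detected in every library, among them Csf1r at 3825 to 4204 CPM. Their summed level was 24650 to 29870 CPM in STAT5 fl/fl and 31150 to 46650 CPM in STAT5 cKO, with most of it from Lyz2. The markers did not move together. Lyz2, Cd14 and Adgre1 had higher means in STAT5 cKO in each treatment, while Csf1r, Cd68, Fcgr1 and Itgam had lower ones. Mertk was higher in STAT5 cKO with DMEM and lower with either stimulus. Markers of neutrophils summed to at most 2.51 CPM with Ly6g at 0 in every library, those of B cells to at most 0.83 CPM, those of T and NK cells to at most 0.09 CPM, and those of erythroid and of mast cells and basophils each to at most 0.10 CPM. Dendritic cell markers summed to 1.43 to 5.17 CPM. Fibroblast markers were higher in STAT5 cKO, at 9.26 to 15.9 CPM against 5.42 to 9.20 CPM, and the part of these differences in the results was not tested.

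A single library stood apart, the 4T1 CM library of STAT5 cKO mouse 115. In it 84 of 13005 tested genes were over 2-fold above the mean of the other two STAT5 cKO libraries with 4T1 CM, against 7 and 37 genes for the libraries of mice 114 and 116. Genes over 2-fold below the mean of the companions numbered 20 in it, against 42 for mouse 114 and 20 for mouse 116, so that it stood apart by its elevated genes only. Its 6 most elevated genes were Saa3, Ccl5, Hp, H2-M2, H2-Q2 and C3. Saa3, which encodes an acute-phase serum amyloid A protein, stood at 630 CPM against 4.31 and 6.52 CPM in the companion libraries. Because a complement component is among the most displaced genes, results that rest on this library are given with and without it. That choice was made after seeing the data, so p-values without the library are descriptions only.

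Levels are given as CPM scaled by relative log expression (RLE) factors, and differences as log2 fold changes ± SE from a single edgeR quasi-likelihood fit to all 15 libraries. A gene was called changed at a Benjamini-Hochberg adjusted p under 0.01 over all tested genes. Of the 8 members, 7 passed the filter of over 1 CPM in at least 2 libraries. Cfb did not and was left untested. Compared per kb of exon, the means of the 6 groups lay between 291 and 498 CPM per kb for C3ar1, 218 and 407 for C1qc, 162 and 402 for C1qb, 137 and 330 for C1qa, and 128 and 294 for Cfp. They were lower for C3, at 36.9 to 150.5 CPM per kb, and for C5ar1, at 38.6 to 128 CPM per kb. Cfb had a mean of 0.76 CPM per kb in STAT5 cKO with 4T1 CM, through mouse 115 (2.125 against 0.050 and 0.096), and means of 0.05 to 0.09 in the other groups. Only 579 of its 2825 exon bases could give counts, so the Cfb values are not comparable with those of the other members. The order of the members depended on genotype: C1qa was above Cfp in each STAT5 fl/fl group, and Cfp was above C1qb in each STAT5 cKO group.

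Members of this set stood between 87.0 and 2227 CPM in single libraries, Cfb excepted, with 1912 or more reads behind each value. The widest span was that of C3, which was 9.09 times higher in its highest library than in its lowest, and the narrowest that of C3ar1 at 1.79 times.

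**Figure D1:**
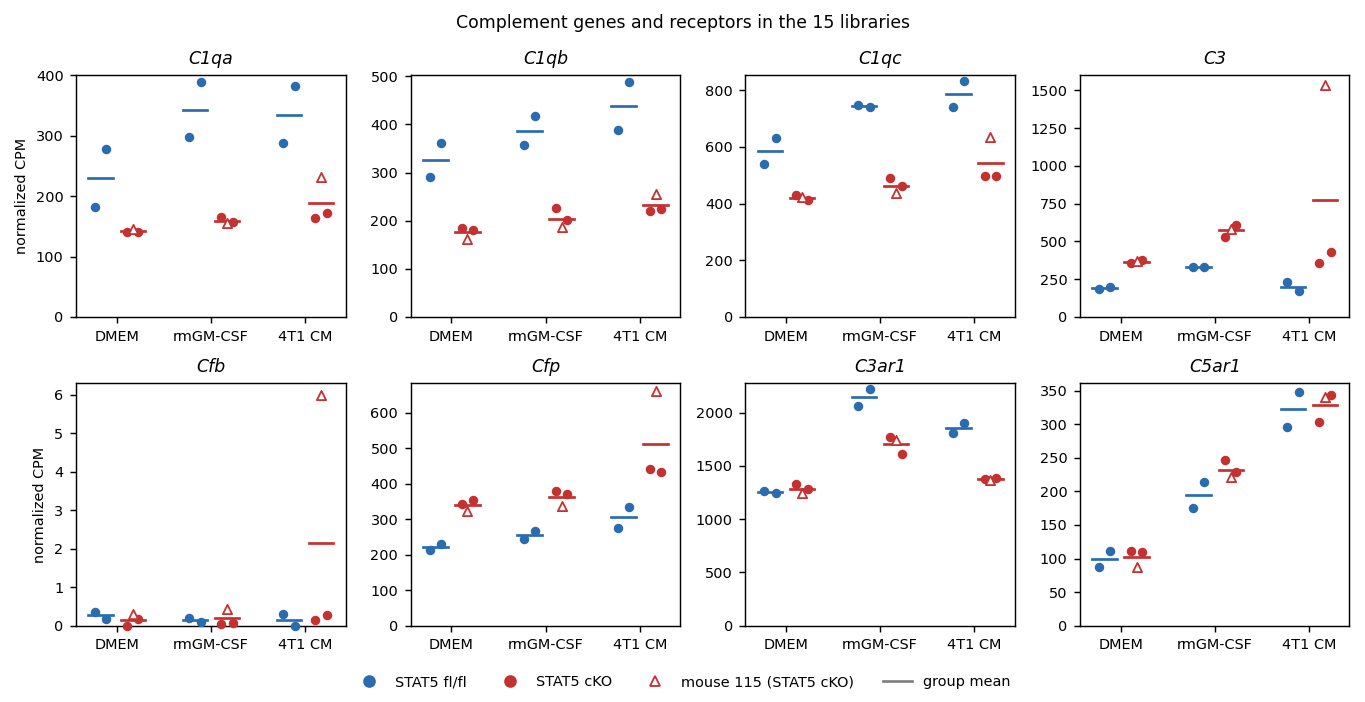
Normalized CPM of the 8 complement genes and receptors in each library, by treatment (x axis) and genotype (color), with group means as bars and STAT5 cKO mouse 115 as open triangles. The C1q chains lie lower in STAT5 cKO in every treatment, C3 and Cfp lie higher, and the 4T1 CM library of mouse 115 reaches 1537 CPM for C3 and 6.00 CPM for Cfb.

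The sequence before the start site is shown for the genes the results turn on, so that the pairing of neighboring C1q genes and the motif matches can be read beside their responses. Of the 8 members, 6 had an entry among the RefSeq promoter windows of GRCm38.p6, each of 250 bases before to 50 bases after the start, and C1qa and Cfb had none. The windows were searched on both strands for TTCNNNGAA (a STAT site), GAAANNGAA (the core of an interferon-stimulated response element), GGGNNTTTC (part of an NF-kB site) and TTGCNNAA (part of a C/EBP site). The printed stretches are on the minus strand, 5′ to 3′. Those of C1qb, C1qc, C3 and C3ar1 end before both the RefSeq start and the start of the gene in the annotation. For C5ar1 only the match is shown, with 10 bases on either side, which lies before the RefSeq start but inside the annotated gene. Capitals mark a motif match.
C1qb, chr4:136886201-136886450: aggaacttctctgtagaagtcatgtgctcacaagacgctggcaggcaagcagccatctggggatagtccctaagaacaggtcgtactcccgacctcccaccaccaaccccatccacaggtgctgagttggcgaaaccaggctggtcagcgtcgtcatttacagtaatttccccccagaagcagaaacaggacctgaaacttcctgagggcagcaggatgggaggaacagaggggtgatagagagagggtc
C1qc, chr4:136893066-136893164: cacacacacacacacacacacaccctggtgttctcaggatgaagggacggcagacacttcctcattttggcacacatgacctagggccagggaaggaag
C3, chr17:57228137-57228386: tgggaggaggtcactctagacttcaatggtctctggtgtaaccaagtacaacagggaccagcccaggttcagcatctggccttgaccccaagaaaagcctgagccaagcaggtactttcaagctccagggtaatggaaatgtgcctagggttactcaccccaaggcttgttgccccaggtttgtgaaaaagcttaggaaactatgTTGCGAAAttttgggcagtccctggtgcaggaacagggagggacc
C3ar1, chr6:122856162-122856407: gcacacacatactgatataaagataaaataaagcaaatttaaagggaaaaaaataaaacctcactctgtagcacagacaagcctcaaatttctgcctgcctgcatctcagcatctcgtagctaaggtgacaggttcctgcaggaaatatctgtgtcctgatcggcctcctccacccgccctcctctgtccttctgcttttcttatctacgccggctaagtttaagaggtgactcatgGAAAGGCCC
C5ar1, chr7:16259386-16259414: agagacttccTTCCTTTTCcaagttgaca

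None of the 6 windows held the letters of the STAT motif, which occur in 8.30% of the 32851 windows in the table. The C/EBP letters were in the C3 window, beginning 45 bases before the start on the gene's own strand, and are in 10.8% of all windows. The NF-kB letters were in the C3ar1 window 13 bases before the start and the interferon element letters in the C5ar1 window 66 bases before the start, both on the opposite strand. They occur in 4.36% and 8.56% of all windows. The windows of C1qb, C1qc and Cfp held none of the motifs, which says only that these letters are not in those 300 bases.

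The C1q chains were lower in STAT5 cKO BMDMs, by 1.39 to 2.16 times depending on chain and treatment. C1qa, C1qb and C1qc each encode a chain of C1q, the recognition subunit of the classical pathway. Their genes lie together on the minus strand of chromosome 4 (GRCm38), within 18.7 kb from 136880129 to 136898803, each with 3 exon blocks in the annotation. C1qb passed the test in all 3 treatments. With DMEM it stood at 291 and 360.4 CPM in the STAT5 fl/fl libraries and at 185, 163 and 181 CPM in the STAT5 cKO libraries. With rmGM-CSF the values were 356 and 417 CPM against 226, 186 and 201 CPM, and with 4T1 CM 387 and 487 CPM against 219, 255 and 224 CPM. The genotypes did not overlap in any treatment, and the highest STAT5 cKO library, at 255 CPM, lay below the lowest STAT5 fl/fl library of any treatment.

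C1qb fell by 0.89 ± 0.11 log2 units with DMEM (edgeR quasi-likelihood test, adjusted p = 2.17e-04), by 0.92 ± 0.11 with rmGM-CSF (adjusted p = 1.55e-05) and by 0.91 ± 0.11 with 4T1 CM (adjusted p = 3.28e-05). These 3 calls held in every alternative fit that was run. Members called in STAT5 cKO against STAT5 fl/fl were 2 of 7 tested with DMEM, C1qb and C1qc, where 2.35% of all tested genes were called. With rmGM-CSF they were 4 of 7, the C1q chains and C3ar1, beside 9.93% of all genes, and with 4T1 CM 6 of 7, beside 7.44% of all genes.

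C1qc, the chain with the highest mean level per kb in each of the 6 groups, was also lower in STAT5 cKO. With DMEM its level was 539 and 633 CPM in STAT5 fl/fl and 429, 423 and 411 CPM in STAT5 cKO, and with rmGM-CSF 748 and 742 CPM against 490.1, 437 and 464 CPM. With 4T1 CM it was 739 and 834 CPM against 498, 633 and 497 CPM. The groups were separate in each treatment, although the STAT5 cKO library of mouse 115 with 4T1 CM reached the level of a STAT5 fl/fl library with DMEM. The decrease was 0.48 ± 0.10 log2 units with DMEM (edgeR, adjusted p = 0.00661), 0.68 ± 0.10 with rmGM-CSF (adjusted p = 7.01e-05) and 0.54 ± 0.10 with 4T1 CM (adjusted p = 0.00107). The call with DMEM was lost without any one of mice 112, 113, 114 or 116, with adjusted p from 0.015 to 0.171, and that with 4T1 CM without mouse 113 (adjusted p = 0.0411) or mouse 116 (adjusted p = 0.0107).

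C1qa differed more between the STAT5 fl/fl mice. Its level was 182 and 277 CPM with DMEM, 297 and 389 CPM with rmGM-CSF and 288 and 382 CPM with 4T1 CM in mice 112 and 113. In STAT5 cKO the values were 141, 145 and 141 CPM with DMEM, 165, 156 and 157 CPM with rmGM-CSF and 164, 231 and 172 CPM with 4T1 CM. Mouse 113 was above mouse 112 in each treatment, and the genotypes did not overlap within a treatment. C1qa fell by 1.11 ± 0.16 log2 units with rmGM-CSF (edgeR, adjusted p = 1.08e-04) and by 0.82 ± 0.16 with 4T1 CM (adjusted p = 0.00224), but the log2 difference of -0.69 ± 0.16 with DMEM missed the threshold (adjusted p = 0.0177). It passed without the 4T1 CM library of mouse 115 (-0.69 ± 0.14, adjusted p = 0.00559) and without mouse 112 (-0.96, adjusted p = 0.00357). The call with 4T1 CM was lost without mouse 113, 114 or 116, at adjusted p of 0.0179, 0.0184 and 0.0189.

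**Figure D2:**
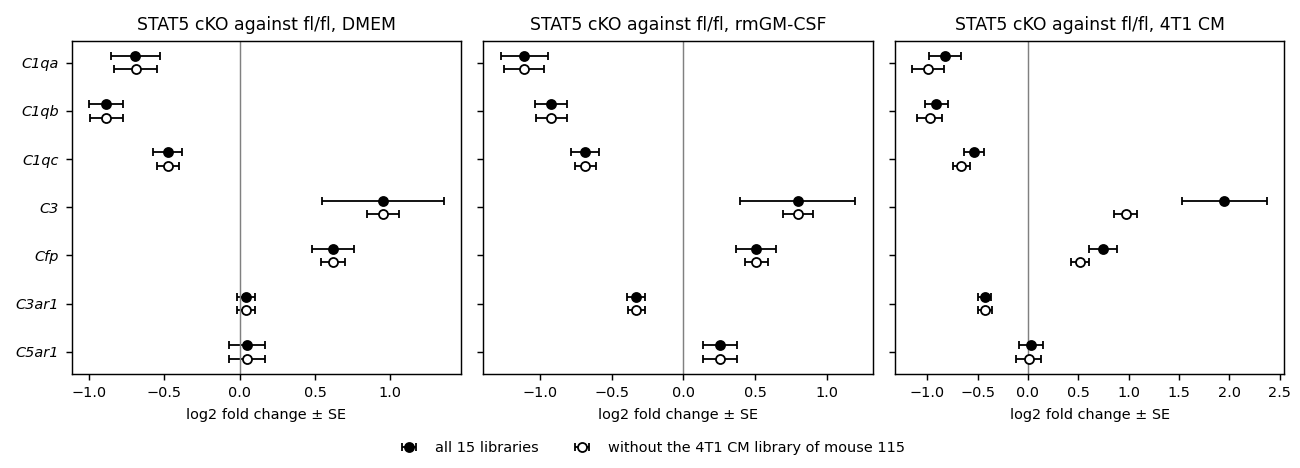
Log2 fold change ± SE of STAT5 cKO against STAT5 fl/fl for the 7 tested members, by treatment, from the fit of all 15 libraries (filled) and without the 4T1 CM library of mouse 115 (open). C1q chains lie left of 0 in each treatment, C3 and Cfp right of 0, and the error bar of C3 with DMEM shrinks from 0.40 to 0.11 when that library is left out.

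The chains moved together, but not in equal measure. Over the 15 libraries the log2 levels of any pair of chains correlated at Pearson r = 0.96 to 0.97, a description only, since libraries of the same mouse and treatment share their source. Per kb of exon, the C1qb to C1qc ratio was 0.85 to 1.04 in the 6 STAT5 fl/fl libraries and 0.68 to 0.82 in the 9 STAT5 cKO libraries, with no overlap between the genotypes. The C1qa to C1qc ratio overlapped, at 0.63 to 0.97 and 0.61 to 0.68. The C1qa to C1qb ratio had medians of 0.81 in both genotypes. No test was made of these ratios.

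**Figure D3:**
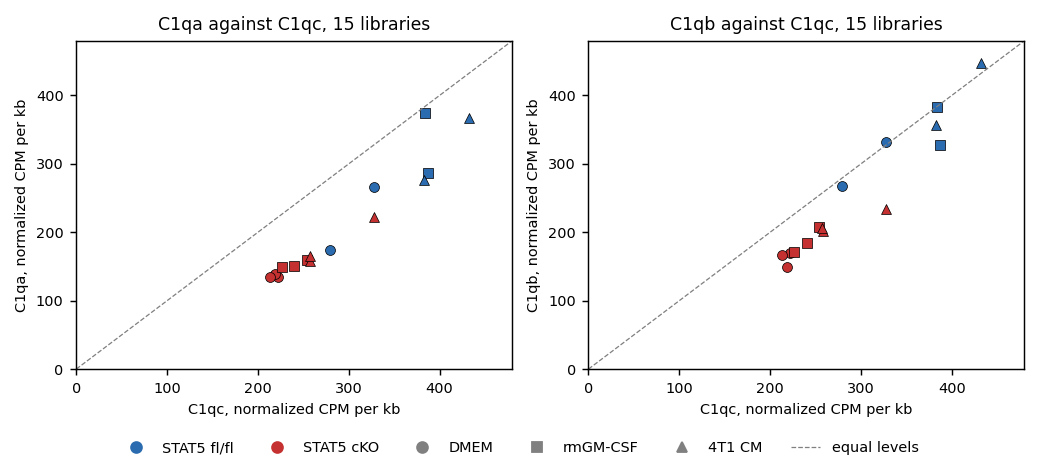
Normalized CPM per kb of exon of C1qa (left) and C1qb (right) against C1qc in the 15 libraries, colored by genotype and shaped by treatment, with a dashed line of equal levels. All STAT5 cKO libraries lie below the line in both panels, and for C1qb their ratio to C1qc of 0.68 to 0.82 lies below the 0.85 to 1.04 of the STAT5 fl/fl libraries.

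4T1 CM raised C1qb and C1qc in both genotypes. With 4T1 CM against DMEM in STAT5 fl/fl, C1qb rose by 0.43 ± 0.12 and C1qc by 0.42 ± 0.11 log2 units (edgeR, adjusted p = 0.00920 and 0.00325), while C1qa was at 0.54 ± 0.18 (adjusted p = 0.0186). In STAT5 cKO the same contrast gave a rise of 0.40 ± 0.10 for C1qb and of 0.37 ± 0.09 for C1qc (adjusted p = 0.00366 and 0.00210). The rises in STAT5 cKO did not pass without the 4T1 CM library of mouse 115, at 0.33 ± 0.11 for C1qb (adjusted p = 0.0188) and 0.24 ± 0.07 for C1qc (adjusted p = 0.0117). In STAT5 fl/fl the C1qb rise was near the threshold, and the adjusted p without mouse 112, 113 or 116 was 0.0250, 0.0353 and 0.0174. The C1qc rise was lost without mouse 112 (adjusted p = 0.0502) or 113 (adjusted p = 0.0313), and that of C1qb in STAT5 cKO also without mouse 116 (adjusted p = 0.0161).

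Because the 3 libraries of a mouse share an animal, the treatment contrasts were also fitted with the mouse as a block. C1qa then rose with 4T1 CM against DMEM in STAT5 fl/fl by 0.56 log2 units (edgeR, adjusted p = 1.58e-04) and in STAT5 cKO by 0.40 (adjusted p = 5.54e-04). With rmGM-CSF against DMEM in STAT5 fl/fl, where no chain passed in the unblocked fit, C1qa rose by 0.60 (adjusted p = 1.21e-04) and C1qc by 0.35 (adjusted p = 0.00646) under the block. The unblocked values there were 0.58 ± 0.18 and 0.35 ± 0.11 (adjusted p = 0.0160 and 0.0155). C1qa also passed without mouse 113 in both STAT5 fl/fl contrasts (adjusted p = 0.00891 with rmGM-CSF and 0.00946 with 4T1 CM), and with 4T1 CM in STAT5 cKO without mouse 112 (adjusted p = 0.00383) or 113 (adjusted p = 0.00382). Without the 4T1 CM library of mouse 115, the unblocked fit gave C1qa and C1qc with rmGM-CSF at adjusted p = 0.00588 and 0.00209, and C1qa with 4T1 CM in STAT5 fl/fl at 0.00707.

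In order of mean level, each chain ran from STAT5 cKO with DMEM up through rmGM-CSF and 4T1 CM to STAT5 fl/fl with DMEM and then the stimulated STAT5 fl/fl groups. For C1qb the step between the highest STAT5 cKO group and the lowest STAT5 fl/fl group did not overlap. For C1qa and C1qc those neighbors did overlap, in both cases through the mouse 115 library with 4T1 CM. The stimulated STAT5 fl/fl groups overlapped each other for all 3 chains.

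C3 was higher in STAT5 cKO BMDMs in every treatment. C3 is the component whose cleavage yields C3a and the opsonin C3b, and its gene lies on the minus strand of chromosome 17 at 57203970 to 57228136. With DMEM its level was 183 and 197 CPM in STAT5 fl/fl and 354, 372 and 374 CPM in STAT5 cKO. With rmGM-CSF it was 331 and 329 CPM against 531, 579 and 611 CPM, and with 4T1 CM 231 and 169 CPM against 355, 1537 and 429 CPM. The genotypes did not overlap in any treatment, and the 1537 CPM of mouse 115 was 3.92 times the mean of its companion libraries and 2.52 times the highest of all other libraries.

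With all 15 libraries, C3 passed with 4T1 CM alone, where it rose by 1.95 ± 0.42 log2 units (edgeR, adjusted p = 0.00439). The differences of 0.95 ± 0.40 with DMEM and 0.80 ± 0.40 with rmGM-CSF did not pass (adjusted p = 0.181 and 0.196). Without the 4T1 CM library of mouse 115 the SE fell to 0.11, and C3 rose in all 3 treatments, by 0.95 with DMEM (adjusted p = 3.68e-05), 0.80 with rmGM-CSF (adjusted p = 2.99e-05) and 0.97 with 4T1 CM (adjusted p = 2.20e-05). That library was left out because C3 itself was displaced in it, which shrinks the spread of C3, so these p-values are no independent support. The call with 4T1 CM was lost without mouse 112 (adjusted p = 0.0426) or mouse 113 (adjusted p = 0.121), and when only the libraries compared were fitted (adjusted p = 0.0757).

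C3 was higher with rmGM-CSF than with DMEM in each mouse of both genotypes. The difference was 0.80 ± 0.43 log2 units in STAT5 fl/fl and 0.65 ± 0.35 in STAT5 cKO, neither of which passed with all libraries (edgeR, adjusted p = 0.157 and 0.170). Without the mouse 115 4T1 CM library, both did, at 0.80 ± 0.11 (adjusted p = 2.46e-05) and 0.65 ± 0.09 (adjusted p = 3.08e-05), and the difference between the genotypes in this response was -0.15 ± 0.15 (adjusted p = 0.740). Every rmGM-CSF library was above every DMEM library of its genotype.

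With 4T1 CM against DMEM the C3 difference in STAT5 fl/fl was 0.07 ± 0.43 log2 units and did not pass (edgeR, adjusted p = 0.901). In STAT5 cKO the difference of 1.08 ± 0.35 missed the threshold (adjusted p = 0.0176) and was 0.10 ± 0.10 without the library of mouse 115 (adjusted p = 0.472). It passed without mouse 114, at 1.40 (adjusted p = 0.00573). Against rmGM-CSF, 4T1 CM gave 0.43 ± 0.35 in STAT5 cKO (adjusted p = 0.334), which reversed to -0.55 ± 0.10 without that library (adjusted p = 3.91e-04). The same contrast in STAT5 fl/fl was -0.72 ± 0.43 (adjusted p = 0.196) and -0.72 ± 0.11 without it (adjusted p = 6.57e-05). Without that library, C3 was thus higher with rmGM-CSF than with either DMEM or 4T1 CM in both genotypes.

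Cfb transcripts were near the limit of detection. Cfb encodes factor B, the catalytic subunit of the alternative pathway convertase, and lies on the minus strand of chromosome 17 at 34856374 to 34862518. It had 8 and 4 counts with DMEM, 3 and 2 with rmGM-CSF and 6 and 0 with 4T1 CM in STAT5 fl/fl. In STAT5 cKO it had 0, 7 and 4 counts with DMEM, 1, 10 and 1 with rmGM-CSF, and 3, 127 and 6 with 4T1 CM. The 127 counts, or 6.00 CPM, belong to the mouse 115 library, in which Cfb stood 29.0 times above the mean of the companion libraries.

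The remaining libraries gave at most 10 counts, and a count of 0 allows up to 3 counts, or 0.13 to 0.19 CPM, in a single library, which covers counting error only. Of the Cfb exon length, 79.5% is shared on the same strand with the readthrough gene Gm20547, which had 0 counts. Reads in shared bases belong to more than 1 gene and were not assigned by the counting, so that 579 of 2825 exon bases could give counts and the Cfb level is understated.

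Cfp was higher in STAT5 cKO and highest with 4T1 CM. Cfp encodes properdin, which stabilizes the alternative pathway convertase, and lies on the minus strand of chromosome X at 20925454 to 20931555. With DMEM it stood at 212 and 231 CPM in STAT5 fl/fl and 343, 324 and 353 CPM in STAT5 cKO, and with rmGM-CSF at 245 and 265 CPM against 380.3, 337 and 371 CPM. With 4T1 CM it stood at 275 and 334 CPM against 440.1, 660 and 432 CPM. The genotypes were separate in every treatment, and the 660 CPM of mouse 115 was 1.51 times the mean of its companion libraries.

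Cfp rose in STAT5 cKO with 4T1 CM by 0.75 ± 0.14 log2 units (edgeR, adjusted p = 0.00151), a call that was lost without mouse 112 (adjusted p = 0.0524) or 113 (adjusted p = 0.0146). The differences of 0.62 ± 0.14 with DMEM and 0.51 ± 0.14 with rmGM-CSF missed the threshold (adjusted p = 0.0141 and 0.0177). Without the mouse 115 4T1 CM library Cfp passed in all 3 treatments, at 0.62 ± 0.08, 0.51 ± 0.08 and 0.52 ± 0.09 (edgeR, adjusted p = 1.93e-04, 1.99e-04 and 6.52e-04). The differences with DMEM and rmGM-CSF kept their size, and only their SE fell. Cfp itself was higher in the library left out, so these p-values are no independent support.

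With 4T1 CM against DMEM, Cfp rose in STAT5 cKO by 0.59 ± 0.12 log2 units (edgeR, adjusted p = 7.13e-04), and by 0.36 ± 0.08 without that library (adjusted p = 0.00118). In STAT5 fl/fl the difference was 0.46 ± 0.15 (adjusted p = 0.0185), which passed with the mouse as a block (0.45, adjusted p = 0.00978) and without the mouse 115 4T1 CM library (0.46 ± 0.09, adjusted p = 3.17e-04). Its rise with 4T1 CM against rmGM-CSF in STAT5 cKO, 0.49 ± 0.12 (adjusted p = 0.00330), did not pass without that library (0.27 ± 0.08, adjusted p = 0.0120). With rmGM-CSF against DMEM, Cfp differed by 0.20 ± 0.15 in STAT5 fl/fl and 0.09 ± 0.12 in STAT5 cKO, neither past the threshold (adjusted p = 0.310 and 0.601).

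For C3 and Cfp the order of group means placed the STAT5 fl/fl groups below the STAT5 cKO groups. The lowest groups for C3 were STAT5 fl/fl with DMEM and with 4T1 CM, which overlapped. Neighbors also overlapped for Cfp where the genotypes met, STAT5 fl/fl with 4T1 CM at 304 ± 41.6 CPM (SD, n = 2) and STAT5 cKO with DMEM at 340.1 ± 14.9 CPM (SD, n = 3).

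C3ar1 rose with rmGM-CSF in both genotypes and with 4T1 CM in STAT5 fl/fl. It encodes the G protein-coupled receptor for C3a and lies on the minus strand of chromosome 6 at 122847138 to 122856161. With DMEM its level was 1261 and 1242 CPM in STAT5 fl/fl and 1329, 1248 and 1286 CPM in STAT5 cKO. With rmGM-CSF it was 2064 and 2227 CPM against 1771, 1742 and 1610 CPM, and with 4T1 CM 1813 and 1901 CPM against 1376, 1371 and 1388 CPM. The genotypes overlapped with DMEM and were separate with either stimulus, STAT5 cKO being lower.

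In STAT5 fl/fl, C3ar1 rose by 0.78 ± 0.07 log2 units with rmGM-CSF and by 0.57 ± 0.07 with 4T1 CM against DMEM (edgeR, adjusted p = 8.10e-08 and 2.43e-06). In STAT5 cKO it rose by 0.41 ± 0.06 with rmGM-CSF (adjusted p = 2.18e-05), while the 0.10 ± 0.06 with 4T1 CM did not pass (adjusted p = 0.158). Against rmGM-CSF it fell by 0.31 ± 0.06 with 4T1 CM in STAT5 cKO (adjusted p = 2.17e-04), and the value in STAT5 fl/fl was -0.21 ± 0.07 (adjusted p = 0.0204). The other called member with rmGM-CSF against DMEM was C5ar1, making 2 of 7 in each genotype where 28.7% of all genes were called in STAT5 fl/fl and 23.5% in STAT5 cKO.

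Between genotypes, C3ar1 fell by 0.33 ± 0.06 log2 units with rmGM-CSF (edgeR, adjusted p = 0.00108) and by 0.43 ± 0.06 with 4T1 CM (adjusted p = 1.49e-04), against a difference of 0.04 ± 0.06 with DMEM (adjusted p = 0.762). The call with rmGM-CSF was lost without mouse 113 (adjusted p = 0.0581) or 116 (adjusted p = 0.0126), and that with 4T1 CM without mouse 113 (adjusted p = 0.0106). The difference in response was tested by the interaction of genotype with treatment. With 4T1 CM against DMEM, the STAT5 cKO response was lower by -0.47 ± 0.09 (adjusted p = 0.00571), the single called interaction among the 7 members where 1.31% of all genes were called. It passed without the mouse 115 4T1 CM library (adjusted p = 0.00689), but not without all libraries of any one mouse (adjusted p from 0.0199 to 0.166) or when only the libraries compared were fitted (adjusted p = 0.0181).

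The corresponding interaction with rmGM-CSF was -0.37 ± 0.09 (edgeR, adjusted p = 0.0174), so that 0 of 7 members were called there beside 3.16% of all genes. At an unadjusted p under 0.05 it was 1 of 7, C3ar1, and DESeq2 called it at an adjusted p of 1.99e-04. For the interaction with 4T1 CM against rmGM-CSF, 0 of 7 were called by edgeR and by DESeq2, beside 1.43% of all genes by edgeR, and 0 had an unadjusted p under 0.05. By mean level, C3ar1 ran from both DMEM groups, which overlapped, through STAT5 cKO with 4T1 CM, STAT5 cKO with rmGM-CSF and STAT5 fl/fl with 4T1 CM to STAT5 fl/fl with rmGM-CSF, and none of these later neighbors overlapped.

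C5ar1 rose with both stimuli, and further with 4T1 CM than with rmGM-CSF. It encodes the C5a receptor, a chemoattractant receptor of neutrophils and macrophages, and lies on the minus strand of chromosome 7 at 16246743 to 16259540. With DMEM it stood at 87.0 and 111 CPM in STAT5 fl/fl and 111, 87.8 and 109 CPM in STAT5 cKO. With rmGM-CSF it was at 175 and 214 CPM against 247, 221 and 228 CPM, and with 4T1 CM at 296 and 348 CPM against 303, 340.3 and 343 CPM. Treatments were separate in both genotypes, with DMEM lowest and 4T1 CM highest, while the genotypes overlapped with DMEM and with 4T1 CM.

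In STAT5 fl/fl, C5ar1 rose by 0.97 ± 0.13 log2 units with rmGM-CSF and by 1.70 ± 0.13 with 4T1 CM against DMEM (edgeR, adjusted p = 1.45e-05 and 1.07e-08). In STAT5 cKO the rises were 1.17 ± 0.11 and 1.68 ± 0.11 (adjusted p = 1.63e-07 and 7.09e-10). Between the stimuli, it rose from rmGM-CSF to 4T1 CM by 0.73 ± 0.13 in STAT5 fl/fl and by 0.50 ± 0.10 in STAT5 cKO (adjusted p = 2.09e-04 and 7.81e-04), and without mouse 116 the latter missed the threshold at 0.46 (adjusted p = 0.0156). The rises over DMEM held in every alternative fit run.

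No genotype difference of C5ar1 passed the test. The log2 differences were 0.05 ± 0.12 with DMEM, 0.26 ± 0.12 under rmGM-CSF and 0.03 ± 0.12 under 4T1 CM (edgeR, adjusted p = 0.861, 0.158 and 0.903), and the interactions were 0.21 ± 0.17 with rmGM-CSF and -0.02 ± 0.17 with 4T1 CM against DMEM (adjusted p = 0.697 and 0.980).

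Counted over the members, 4T1 CM against DMEM called 4 of 7 in STAT5 fl/fl (C1qb, C1qc, C3ar1 and C5ar1) and 4 of 7 in STAT5 cKO (C1qb, C1qc, Cfp and C5ar1), all higher, beside 37.2% of all genes in either genotype. Against rmGM-CSF, 4T1 CM called 1 of 7 in STAT5 fl/fl beside 30.9% of all genes. In STAT5 cKO 3 of 7 were called, Cfp and C5ar1 higher and C3ar1 lower, beside 34.1% of all genes. The contrasts with DMEM share the DMEM libraries. Median log2 differences over the 7 members were -0.33 with rmGM-CSF and -0.43 with 4T1 CM between the genotypes, and 0.04 with DMEM, where those of all tested genes lay between 0.00 and 0.01. In each treatment the median is the value of C3ar1, with the C1q chains below it and C3, Cfp and C5ar1 above 0. The medians therefore do not describe a shift of the set as a whole.

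**Figure D4:**
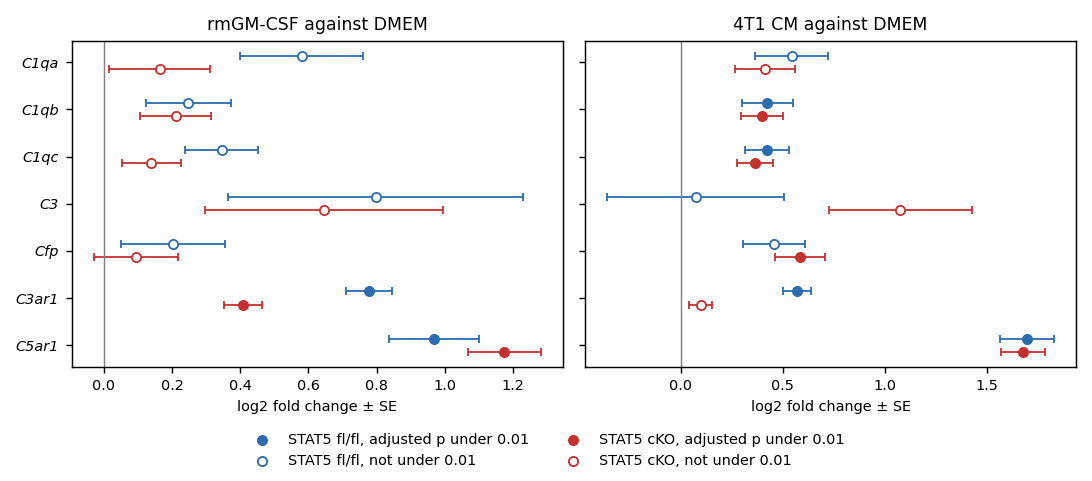
Log2 fold change ± SE of rmGM-CSF (left) and 4T1 CM (right) against DMEM for the 7 tested members in STAT5 fl/fl and STAT5 cKO BMDMs, filled where the adjusted p was under 0.01. C5ar1 stands at 1.70 in STAT5 fl/fl and 1.68 in STAT5 cKO with 4T1 CM, while C3ar1 stands at 0.57 in STAT5 fl/fl and 0.10 in STAT5 cKO with 4T1 CM.

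The genes with the most similar profile across the 15 libraries were listed for each member by Pearson's r of log2 CPM, as a description. For C1qa they were Rps12, Rps9 and Fcgr2b, for C1qb Rps9, Rpl22 and Mrc1, and for C1qc Rps9, Rps12 and Fcgr2b, with r from 0.94 to 0.96. For C3 they were Pgap2, Ankfy1 and Saa3 (r = 0.96, 0.92 and 0.91), of which Saa3 shares the high value in the mouse 115 library. For C3ar1 they were Eif2s1, Bcl2a1b and Bcl2a1d (0.96 to 0.98). The Bcl2a1 copies are near-identical, and reads that align to both were not counted. For C5ar1 the most similar genes were Tnfrsf1a, Dok2 and Spred2 (0.98), and for Cfp Pdia3, Calr and Car5b (0.94 to 0.95). Among the members themselves, C3 and Cfp correlated at r = 0.80 and C3 and C1qb at -0.52.

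The other genes of the complement system were read from a list of 44 genes, of which 14 passed the filter. The early classical pathway gave 2 of 7 tested, C1ra and C4a, and the lectin pathway 2 of 8, Masp1 and Fcna. C1ra and C4a have near-identical copies, C1rb and C4b. Reads that align to both copies were not counted, so these levels may be understated. Cfd, the remaining alternative pathway gene, was at 0 counts in all libraries, and none of the 7 terminal pathway genes passed, with at most 18 counts, from C8g. Receptors gave 5 of 7 tested and inhibitors 5 of 14.

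Between genotypes, 1 of these 14 was called under DMEM, 2 under rmGM-CSF and 1 under 4T1 CM, beside 2.35%, 9.93% and 7.44% of all tested genes. With DMEM it was Cd93, a membrane glycoprotein first described as a C1q receptor, which fell by 0.37 ± 0.06 log2 units (edgeR, adjusted p = 7.70e-04), from 695 and 719 CPM to between 542 and 557 CPM. With rmGM-CSF, Itgb2, the common chain of the complement receptors CR3 and CR4, rose by 0.39 ± 0.09 (adjusted p = 0.00374). With 4T1 CM only Itgb2 passed, with a rise of 0.35 ± 0.08 (adjusted p = 0.00948) that did not pass without the 4T1 CM library of mouse 115 (0.27, adjusted p = 0.0303) or without mouse 113 (adjusted p = 0.246) or 114 (adjusted p = 0.0210). With rmGM-CSF, Itgb2 was lost without mouse 112, 113, 114 or 116 (adjusted p from 0.0131 to 0.0401).

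Cd93 also differed between genotypes in its response. With rmGM-CSF against DMEM it fell by 0.36 ± 0.06 log2 units in STAT5 fl/fl (edgeR, adjusted p = 1.58e-04), from 707 ± 16.7 to 551 ± 6.81 CPM (SD, n = 2). In STAT5 cKO its level was 542 to 557 CPM with DMEM and 565 to 583 CPM with rmGM-CSF over 3 mice. With 4T1 CM it rose in both, by 0.32 ± 0.06 in STAT5 fl/fl and by 0.79 ± 0.05 in STAT5 cKO (adjusted p = 3.51e-04 and 6.19e-10). The interaction was 0.43 ± 0.08 with rmGM-CSF and 0.47 ± 0.08 with 4T1 CM against DMEM (edgeR, adjusted p = 0.00253 and 0.00246). Cd93 was the single gene of the 14 so called in each, beside 3.16% and 1.31% of all tested genes. The genotypes differed by 0.06 ± 0.06 with rmGM-CSF and 0.10 ± 0.06 with 4T1 CM, neither past the threshold (edgeR, adjusted p = 0.555 and 0.25). These interactions share the DMEM libraries, the only treatment in which the genotypes differed past the threshold. Both interactions passed without the 4T1 CM library of mouse 115, and neither did without all libraries of any one mouse, with adjusted p from 0.0157 to 0.0657 for rmGM-CSF and from 0.0138 to 0.133 for 4T1 CM. The fall of Cd93 with DMEM was lost without mouse 112 (adjusted p = 0.0115) or 113 (adjusted p = 0.0289), that with rmGM-CSF in STAT5 fl/fl without mouse 113 (adjusted p = 0.0153), and its rise with 4T1 CM in STAT5 fl/fl without mouse 112 (adjusted p = 0.0515).

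C5ar2, which encodes another C5a receptor, rose with 4T1 CM. It stood at 0.64 to 1.22 CPM with DMEM and at 8.65 to 12.1 CPM with 4T1 CM over both genotypes. It rose with 4T1 CM by 3.48 ± 0.28 log2 units in STAT5 fl/fl and by 3.52 ± 0.22 in STAT5 cKO (edgeR, adjusted p = 1.36e-08 and 5.43e-10), and with rmGM-CSF by 1.26 ± 0.26 in STAT5 cKO (adjusted p = 0.00119), which was lost without mouse 114 (adjusted p = 0.0352) or 116 (adjusted p = 0.0218). In STAT5 fl/fl the rmGM-CSF value was 0.98 ± 0.34 (adjusted p = 0.0299), and the interaction of 0.28 ± 0.44 did not pass (adjusted p = 0.882). C5ar1 and C5ar2 thus both rose with 4T1 CM in both genotypes.

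Itgax, the alpha chain of CR4, rose in STAT5 fl/fl by 1.12 ± 0.18 log2 units with rmGM-CSF and by 1.20 ± 0.18 with 4T1 CM (edgeR, adjusted p = 7.75e-05 and 2.57e-05), and in STAT5 cKO with 4T1 CM by 0.85 ± 0.14 (adjusted p = 9.16e-05). With rmGM-CSF in STAT5 cKO its value was 0.51 ± 0.15 (adjusted p = 0.0117), and the interaction of -0.62 ± 0.23 did not pass (adjusted p = 0.176). Cd46 encodes a membrane cofactor for the inactivation of C3b and had at most 31 counts per library. With rmGM-CSF, Cd46 fell by 1.84 ± 0.46 in STAT5 fl/fl and by 1.48 ± 0.34 in STAT5 cKO (edgeR, adjusted p = 0.00409 and 0.00229). DESeq2 did not call Cd46 in either (adjusted p = 0.0190 and 0.0108), and leaving out any mouse of the genotype ended the call (adjusted p from 0.0144 to 0.129). Only DMEM libraries held over 1 CPM of Cd46, with at most 0.76 CPM in the other groups, so the filter itself favored a fall from DMEM. The test cannot separate a response of Cd46 from that selection. Counted over the 14, rmGM-CSF against DMEM gave 2 higher and 2 lower in STAT5 fl/fl and 1 of each in STAT5 cKO, beside 28.7% and 23.5% of all tested genes. Cd46 is among the lower genes in both. 4T1 CM against DMEM gave 5 higher in each genotype, beside 37.2% of all tested genes.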

How the data were processed

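RNA of BMDMs was sequenced as stranded libraries. The authors trimmed reads with Trimmomatic 0.33, aligned them to GRCm38 with HISAT2 2.1.0 and counted read pairs per gene with featureCounts 1.6.2 (Ensembl 99, reverse strand, mapping quality of at least 10), per the methods and the file header. The deposited values are raw counts per gene, beside each gene's exon length, with no replicate pooled. Reads that overlap exons of more than 1 gene, or align to several places, were not counted by these settings. Samples were grouped by the genotype and treatment in the labels, which name the mouse (112 to 116).

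Counts were fitted with the edgeR 4.0.16 quasi-likelihood test in R 4.3.3, with RLE factors (0.945 to 1.08) and 1 mean per group over all 15 libraries. Genes with over 1 CPM in at least 2 libraries were tested (13005), and p-values were Benjamini-Hochberg adjusted over all of them in each of 12 comparisons. Groups hold 2 or 3 mice, and the main fit took the 15 libraries as independent. The p-values therefore measure the spread of libraries within groups, pooled over repeated libraries of the same mice, and not the spread between animals alone. Counts per library ranged from 16016736 to 22883108, and replicates differed by more than sampling noise. The fits were tested on simulated data.

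Alternatives were DESeq2 1.42.0, the likelihood ratio test, TMM and upper quartile scaling, other filters, a fit of only the libraries compared, leaving out each mouse, a block of mouse (fixed for treatments, and random in limma 3.58.1 for genotypes) and, chosen after seeing the data, leaving out the 4T1 CM library of mouse 115. The numbers pair libraries because they come from the same animal. Deviations from the group means correlated at a mean r of 0.16 within mice in STAT5 cKO, and at 0.17 in STAT5 fl/fl.

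Members and gene lists were chosen with earlier results of these data known. Of the other complement genes, those called between genotypes, or called with a log2 change over 1 between treatments, were named, except for a result that is not reported here. Symbols and positions come from the annotation of the same build, and promoter windows from RefSeq. Other experiments named in the file header had 0 columns in the count table.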

Additional observations from a re-analysis of the deposited data

Results flagged for a closer look

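The response of C3ar1 to 4T1 CM against DMEM differed between the genotypes, with an interaction of -0.47 log2 units (adjusted p = 0.00571 in the edgeR quasi-likelihood test), lower in STAT5 cKO. C3ar1 was higher with 4T1 CM than with DMEM in 2 of 2 STAT5 fl/fl mice and in 3 of 3 STAT5 cKO mice. Cd93 differed in the opposite direction, with an interaction of 0.43 with rmGM-CSF and of 0.47 with 4T1 CM against DMEM (adjusted p = 0.00253 and 0.00246). The Cd93 interactions share the DMEM libraries, the only treatment in which its genotype difference passed the threshold. None of these interactions passed when all libraries of any one mouse were left out, and no cause of them was tested. Groups of 2 or 3 libraries are too small to test a single library for distance from the others.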

How the results depend on the processing

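The 2 STAT5 fl/fl mice limit these results, since leaving out mouse 112 or 113 leaves a single STAT5 fl/fl library per treatment, assumed to vary like the other groups. TMM scaling and another filter (filterByExpr) changed no direction or call in 84 of 84 differences of the members. Without the 4T1 CM library of mouse 115, C3 and Cfp were gained between the genotypes with rmGM-CSF. C1qa and Cfp were gained with 4T1 CM against DMEM in STAT5 fl/fl, as they were with the mouse as a block. Counts below are of members called, out of 7, and the causes of the changes were not tested. The number of all genes called moved with the setting as well. For STAT5 cKO against STAT5 fl/fl with DMEM it was 306 of 13005 in the main fit. It was 608 of 13005 with the likelihood ratio test and 841 of 25884 with no low-count filter. With only the libraries compared it was 278 of 12405, and without the 4T1 CM library of mouse 115 it was 412 of 12969. With 4T1 CM it was 968 of 13005 in the main fit and 279 of 12476 with only the libraries compared.

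STAT5 cKO against STAT5 fl/fl with DMEM gave 4 with the likelihood ratio test, 5 with no low-count filter, 5 with only the libraries compared, 5 without the 4T1 CM library of mouse 115, and 1 to 4 leaving out each mouse. With 4T1 CM it gave 2 with only the libraries compared and 1 to 6 leaving out each mouse. For rmGM-CSF against DMEM in STAT5 fl/fl the counts were 4, 5 and 5 with the likelihood ratio test, no filter and only the libraries compared, 4 with the replicate block of mouse, 5 without that library and 2 to 4 leaving out each mouse. For 4T1 CM against DMEM in STAT5 fl/fl the range leaving out each mouse was 2 to 5. For 4T1 CM against rmGM-CSF in STAT5 fl/fl, DESeq2, no filter, only the libraries compared and leaving out that library each gave 2, and leaving out each mouse 1 to 2. For 4T1 CM against DMEM in STAT5 cKO, no filter gave 7, leaving out that library 2 and leaving out each mouse 2 to 5, and against rmGM-CSF no filter gave 7. Of all tested genes, rmGM-CSF against DMEM in STAT5 fl/fl called 3730 of 13005 in the main fit and 4047 with the likelihood ratio test. It called 4050 of 25884 with no filter and 4007 of 12307 with only the libraries compared. In STAT5 cKO, 4T1 CM against DMEM called 4838 of 13005 in the main fit. With no filter it called 5300 of 25884, and without that library 4414 of 12969. The interaction with rmGM-CSF called 518 genes with DESeq2, 535 with the likelihood ratio test and 662 with no filter. Of the members it gave 1, 1 and 2. With 4T1 CM against DMEM it gave 3 with no filter and 0 with only the libraries compared or without any one mouse, and with 4T1 CM against rmGM-CSF 1 with no filter.

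Log2 differences that reversed were small or rested on mouse 115. Under upper quartile scaling they were C5ar1 between genotypes with 4T1 CM (-2.39e-04), C1qa in STAT5 fl/fl with 4T1 CM against rmGM-CSF (0.0588) and the C1qb interaction with 4T1 CM against rmGM-CSF (-0.0431). Without the 4T1 CM library of mouse 115 they were C3 with 4T1 CM against rmGM-CSF in STAT5 cKO (-0.55), the Cfp interaction with 4T1 CM against DMEM (-0.10) and the C1qb interaction with 4T1 CM against rmGM-CSF (-0.0556). Leaving out each mouse, C5ar1 between genotypes ranged from -0.12 to 0.24 with DMEM and -0.0801 to 0.148 with 4T1 CM. C3 ranged from -0.22 to 0.34 in STAT5 fl/fl with 4T1 CM against DMEM and from -0.54 to 0.77 in STAT5 cKO with 4T1 CM against rmGM-CSF, and C1qc in STAT5 fl/fl from -0.0173 to 0.167 in the latter contrast. Interactions with 4T1 CM against DMEM ranged from -0.147 to 0.0544 for C1qb, -0.180 to 0.0159 for C1qc, -0.15 to 0.10 for C5ar1 and -0.13 to 0.26 for Cfp. Those with 4T1 CM against rmGM-CSF ranged from -0.12 to 0.14 for C1qb, -0.0197 to 0.251 for C1qc and -0.0435 to 0.371 for Cfp. The replicate block changed 5 calls of members in the treatment contrasts, all gained and given above, and none between genotypes.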
